A study of Mus musculus with 6 samples.

Results

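Compact, densely acetylated stretches of chromatin that were called in every genotype were described in RAW264.7, a mouse cell line with macrophage character. Acetylation of histone H3 at lysine 27 (H3K27ac) is laid down by the acetyltransferases CBP and p300 and marks active promoters and enhancers. In macrophages much of the mark lies at elements bound by lineage factors, and it moves when the cells meet inflammatory signals. Short blocks of high H3K27ac are typical of the nucleosomes flanking an active start site, whereas long domains of it are typical of enhancer clusters. BMAL1 pairs with CLOCK to drive the transcription of circadian genes. MFP2 is the product of Hsd17b4 and works in the β-oxidation of fatty acids in peroxisomes, and the title of the series links its entry into the nucleus with BMAL1 and inflammation.

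The genotypes were Bmal1 knockout (Bmal1KO), Mfp2 knockout (Mfp2KO) and wild type (WT, also labelled naive), all in RAW264.7 cells. Every genotype contributed 1 H3K27ac ChIP and 1 input, for a total of 6 libraries. The labels name no inflammatory stimulus, and they do not say whether a knockout line is 1 clone or a pool. With 1 library per genotype no difference between genotypes could be tested, so every comparison is between these libraries.

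The regions were chosen by measured values. Overlapping peaks of the 3 lists were merged on chromosomes 1 to 19, which gave 38990 regions, and 14443 of these held a peak in every genotype. A region was kept when its WT called length was under 5000 bp and its WT tags came to 100 or more per kb of that length, where tags are scaled to 10 M per library. That left 2700 compact dense regions, or 18.69% of the regions called in every genotype. The others were 9623 compact regions under 100 tags per kb and 2120 regions of 5000 bp or longer, of which 336 also reached 100 tags per kb. WT tags and WT length were thus selected on, and WT levels, the order of the genotypes and all knockout over WT ratios are given as a description with no test. Positions are in build mm39. No region was assigned to a gene, and H3K27ac at the Bmal1 and Hsd17b4 loci was not analysed here, so neither the knockout labels nor the macrophage identity was checked.

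The ChIP libraries held 12.53 M tags in Bmal1KO, 15.78 M in Mfp2KO and 15.79 M in WT. Per the file headers, 37.35% of tags lay in peaks in Bmal1KO, 57.15% in Mfp2KO and 38.71% in WT. Scaling to a fixed total does not remove a difference in that share. In the regions called in every genotype the median tag ratio was 0.87 for Bmal1KO over WT and 1.35 for Mfp2KO over WT, or -0.20 and 0.44 on the log2 scale. Counts of regions changed against WT in summed tags are therefore given on the library-total scale and also relative to this median region.

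The compact dense regions held a larger share of the peak tags than of the called length. In WT this follows from the rule, which keeps regions of many WT tags per kb, so it is a description of the selection. They covered 8.163 Mb in Bmal1KO, 7.311 Mb in Mfp2KO and 8.917 Mb in WT, or 18.21%, 16.48% and 13.92% of the length called on these chromosomes. They held 38.96% of all peak tags in Bmal1KO, 34.07% in Mfp2KO and 35.26% in WT. Most were single peaks: 2659 regions had 1 peak in Bmal1KO, 2685 in Mfp2KO and 2681 in WT. The median region had 468.3 tags per 10 M in Bmal1KO (10th to 90th percentile 268.1 to 881.3), 624.4 in Mfp2KO (325.1 to 1186.6) and 446.4 in WT (293.5 to 769.3). On this library-total scale the 3 ranges overlapped over most of their extent, with Mfp2KO the highest at the 10th percentile, the median and the 90th percentile. As counted, before scaling, these medians were 587, 985.2 and 705 tags, so counting error is small for a typical region.

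Per kb of called length, on the library-total scale, the genotypes stood further apart than in total tags. The median density was 158.6 tags per kb in Bmal1KO (10th to 90th percentile 97.05 to 270.6), 240.2 in Mfp2KO (136.9 to 395.4) and 136.0 in WT (106.0 to 208.0). The WT range starts at 100 because the rule cut it there, while the knockout ranges were free to fall below it. Only 313 of the 2700 regions (11.59%) lay under 100 tags per kb in Bmal1KO, and 60 (2.22%) did so in Mfp2KO. At 5000 bp or longer there were 21 regions in Bmal1KO and 25 in Mfp2KO. The full rule was met in every list by 2340 regions, or 86.67%.

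**Figure D1:**
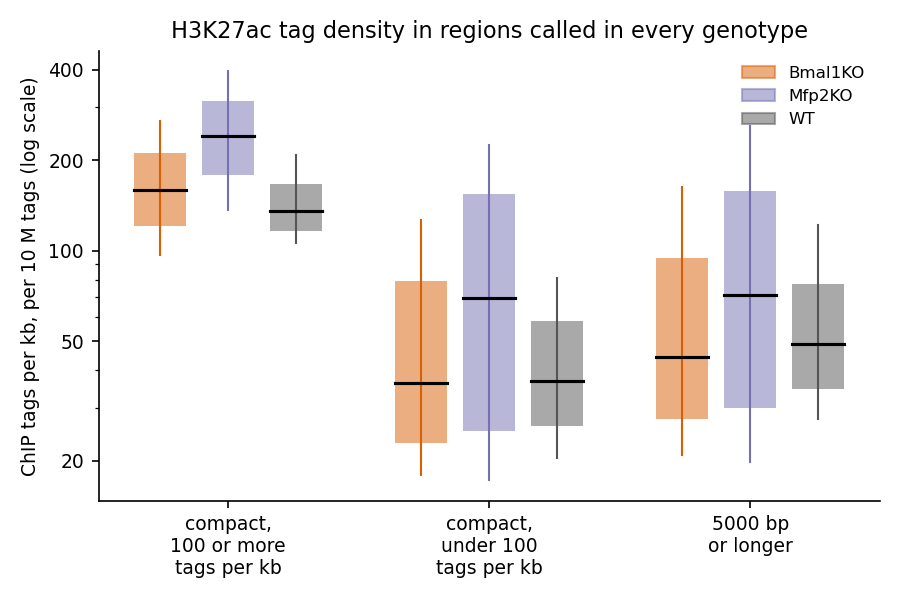
H3K27ac ChIP tags per kb of called length, per 10 M tags (log scale), in the regions called in every genotype, split by the WT-based rule into compact regions of 100 or more tags per kb, compact regions under 100, and regions of 5000 bp or longer. Black lines are medians, boxes the quartiles and thin lines the 10th to 90th percentiles over regions, with 1 library per genotype. In the compact dense regions the medians were 158.6 in Bmal1KO, 240.2 in Mfp2KO and 136.0 in WT.

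Mfp2KO was the densest library in 2328 compact dense regions (86.22%), Bmal1KO in 108 (4%) and WT in 264 (9.78%). Over all regions called in every genotype these shares were 69.42%, 8.23% and 22.35%. This lead of Mfp2KO rested on the library-total scale. Relative to the sum of tags in shared regions, Bmal1KO was densest in 37.33% of the compact dense regions, Mfp2KO in 31.33% and WT in 31.33%. Relative to the median region these shares were 45.89%, 33.78% and 20.33%. Median densities were then 159.4 in Bmal1KO and 158.5 in Mfp2KO on the shared-sum scale, and 181.9 and 177.6 on the median-region scale, so Mfp2KO no longer stood above Bmal1KO. On the library-total scale the most frequent order was Mfp2KO, then Bmal1KO, then WT, which 1521 of the compact dense regions showed (56.33%), against 45.93% of all regions. The order Mfp2KO, WT, Bmal1KO followed with 807 regions (29.89%, against 23.49%). WT above Bmal1KO above Mfp2KO was rare among the compact dense regions, with 26 (0.963%, against 12.81%).

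Because WT values picked the regions, the same rule was also applied to each knockout list. It gave 4290 regions from the Bmal1KO list and 6969 from the Mfp2KO list. The Bmal1KO set held 2372 of the compact dense regions, which is 87.85% of them and 55.29% of that set. The Mfp2KO set held 2617, which is 96.93% of them and 37.55% of that set. On the library-total scale each knockout list thus held more regions that met the rule than the WT list did. The share of tags in peaks and the called lengths differed between the lists, and both enter tags per kb. These counts were not taken on the other scales. The ratios moved with the list used. Median Bmal1KO over WT was 1.28 in the set chosen from Bmal1KO, 1.19 in that chosen from Mfp2KO and 1.02 in that chosen from WT. Median Mfp2KO over WT was 1.70, 1.90 and 1.36 in these sets. Both medians were lowest in the set chosen from WT. Choosing by high values in a library raises that library's side of a ratio, so these shifts were in part fixed by the choice of list.

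Called lengths were shorter in the knockouts. The median was 2940 bp in Bmal1KO (10th to 90th percentile 2323 to 3848), 2602 bp in Mfp2KO (1945 to 3608) and 3248 bp in WT (2449 to 4321). The median length ratio was 0.92 for Bmal1KO over WT and 0.81 for Mfp2KO over WT, beside 0.82 and 0.78 over all regions called in every genotype. The rule limits only the WT length, so these ratios are descriptions too. A ratio of tags summed over separately called lengths moves with those lengths, so counts and named low regions are also given per kb.

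Where each list had a single peak (2633 regions), the edges could be compared. The Bmal1KO peak was a median 264 bp shorter than the WT peak and the Mfp2KO peak 602 bp shorter. The Bmal1KO peak lay wholly inside the WT peak in 1211 regions (45.99%) and spanned it in 291 (11.05%). The Mfp2KO peak lay inside the WT peak in 1829 regions (69.46%) and spanned it in 97 (3.68%). In Mfp2KO the median trim was 461 bp at the edge that moved more and 139 bp at the other edge. In Bmal1KO these medians were 294 bp and -25 bp, so the second edge typically lay slightly outside the WT edge. Centres moved little, by a median of 153.5 bp in Bmal1KO and 159 bp in Mfp2KO, both below the 500 bp window used in the authors' peak calling. A core common to all 3 peaks existed in every one of the 2633 regions, with a median of 2458 bp or 77.87% of the WT length.

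Tag ratios to WT were less spread in the compact dense regions than over all regions called in every genotype. The medians lay on opposite sides of 1 in Bmal1KO and close together in Mfp2KO. Bmal1KO over WT had a median of 1.02 (10th to 90th percentile 0.64 to 1.74), against 0.87 (0.36 to 1.74) over all regions called in every genotype. Mfp2KO over WT had a median of 1.36 (0.80 to 2.27), against 1.35 (0.32 to 3.47). The upper end for Bmal1KO was the same in both sets. In the compact dense regions the upper end for Mfp2KO was lower, and both lower ends were higher. The rule used the WT tags of these ratios, so this is a description. Both knockout comparisons share the WT library, so an unusual WT value would move both. Bmal1KO over Mfp2KO, which uses no WT tags, had a median of 0.77 (0.57 to 0.99), against 0.72 (0.27 to 1.64) over all regions.

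**Figure D2:**
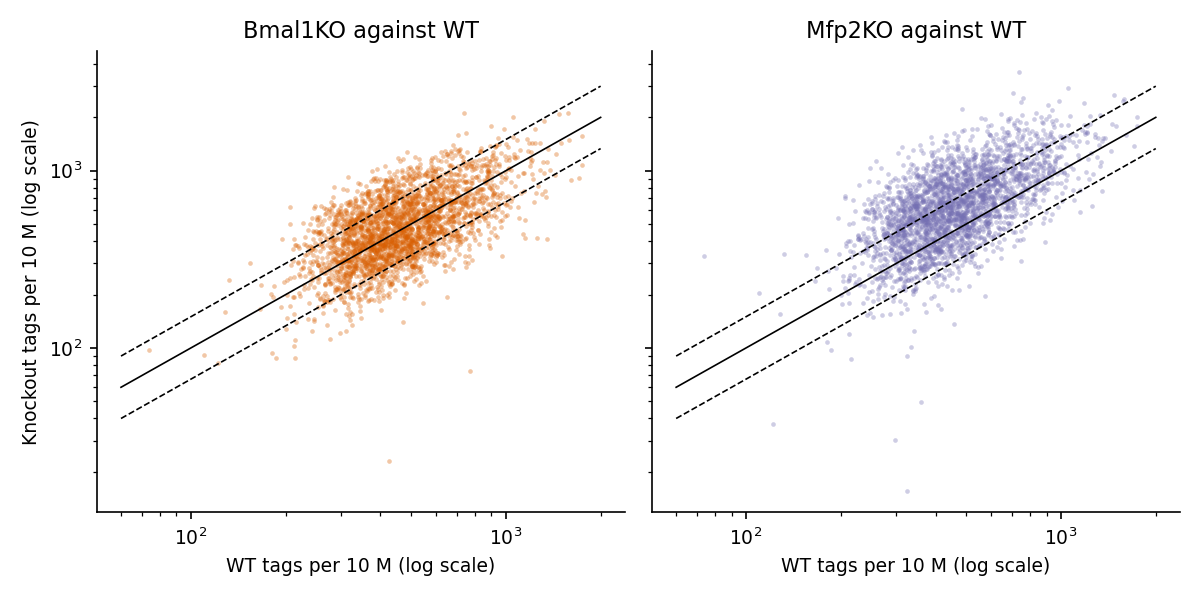
Tags per 10 M in each of the 2700 compact dense regions, with Bmal1KO (left panel) and Mfp2KO (right panel) on the vertical axis and WT on the horizontal axis, both on log scales. The solid line marks equal values and the dashed lines mark 1.5-fold. Most points lie along the solid line in Bmal1KO and above it in Mfp2KO, and a few lie far below.

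At 1.5-fold on the library-total scale, 345 of the 2700 regions (12.78%) were lower in Bmal1KO and 475 (17.59%) were higher. The background over all 14443 regions was 33.1% lower and 16.6% higher. In Mfp2KO 107 regions (3.96%) were lower, with a background of 24.4%, and 1079 (39.96%) were higher, with a background of 44.8%. Relative to the median region, Bmal1KO had 183 lower (6.78%, background 26.3%) and 747 higher (27.67%, background 24.6%). On that scale Mfp2KO had 439 lower (16.26%, background 32.8%) and 439 higher (16.26%, background 29.9%). In tags per kb, 237 regions were at least 1.5-fold lower in Bmal1KO (8.78%, background 8.93%) and 650 higher (24.07%, background 21.1%). By the same measure 23 were lower in Mfp2KO (0.852%, background 8.72%) and 1613 higher (59.74%, background 54%). The rule used the WT tags of these contrasts, so nothing is read from the gap to the background. The split between higher and lower regions changed with the scale in both knockouts, and fewer regions were lower per kb than in total tags.

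The 2 knockouts could be set against each other without WT tags. On the library-total scale, Bmal1KO was at least 1.5-fold lower than Mfp2KO in 703 compact dense regions (26.04%), against a background of 43.6%. It was at least 1.5-fold higher in 18 (0.667%), against a background of 11.7%. The compact regions under 100 tags per kb had 48.52% and 14.11%, and the regions of 5000 bp or longer had 43.73% and 14.48%. The density limit keeps regions with many tags, and the classes differ in tags per region, so these shares are given as counts alone. The share of tags in peaks, 37.35% in Bmal1KO and 57.15% in Mfp2KO, moves this ratio as a whole. Over all regions called in every genotype the median ratio was 0.72, and counts relative to that median were not taken.

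Input was not part of the length and density limits of the rule. It was not free of the selection, since every peak had to be at least 4-fold over its own input and input per kb uses the called length. Input DNA is sonicated chromatin taken without the antibody, and it is used as the local background of a ChIP library. In the compact dense regions median input was 8.25 tags per kb in Bmal1KO (10th to 90th percentile 5.20 to 12.45), 15.31 in Mfp2KO (10.09 to 22.19) and 8.77 in WT (5.95 to 12.31), all per 10 M input tags. The Mfp2KO input thus stood apart, with its 10th percentile above the WT median. Input per kb was higher in Mfp2KO than in WT in 2624 of the 2700 regions (97.19%, against 74.38% of all regions), with a median ratio of 1.74. That ratio was 1.32 in the compact regions under 100 tags per kb, 1.21 in the regions of 5000 bp or longer and 1.39 over all. In Bmal1KO the median input ratio to WT was 0.95, beside 0.99 over all regions, and 1164 regions (43.11%, against 48.22% of all) were higher.

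Mfp2KO input tags summed over the called length had a median ratio to WT of 1.43, close to the 1.36 of its ChIP tags. ChIP over input accordingly placed the genotypes in another order from density. Its median was 19.82 in Bmal1KO (10th to 90th percentile 11.70 to 32.62), 15.94 in Mfp2KO (9.33 to 25.99) and 16.52 in WT (10.67 to 25.47). The median ratio of ChIP over input was 0.95 for Mfp2KO over WT, with 1204 regions (44.59%, against 62.62% of all regions) above 1. For Bmal1KO over WT it was 1.19, with 1862 regions (68.96%, against 59.88% of all regions) above 1. In the compact regions under 100 tags per kb these ratios were 1.29 for Mfp2KO and 1.11 for Bmal1KO, so there ChIP over input was higher in Mfp2KO than in WT. The higher Mfp2KO tag density in compact dense regions was not seen once its own input was divided out. The part of the input in the result was not tested, since 1 input library per genotype leaves no spread to test it against. Subtracting scaled input in place of dividing left the median tag ratios at 1.03 for Bmal1KO over WT and 1.35 for Mfp2KO over WT.

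**Figure D3:**
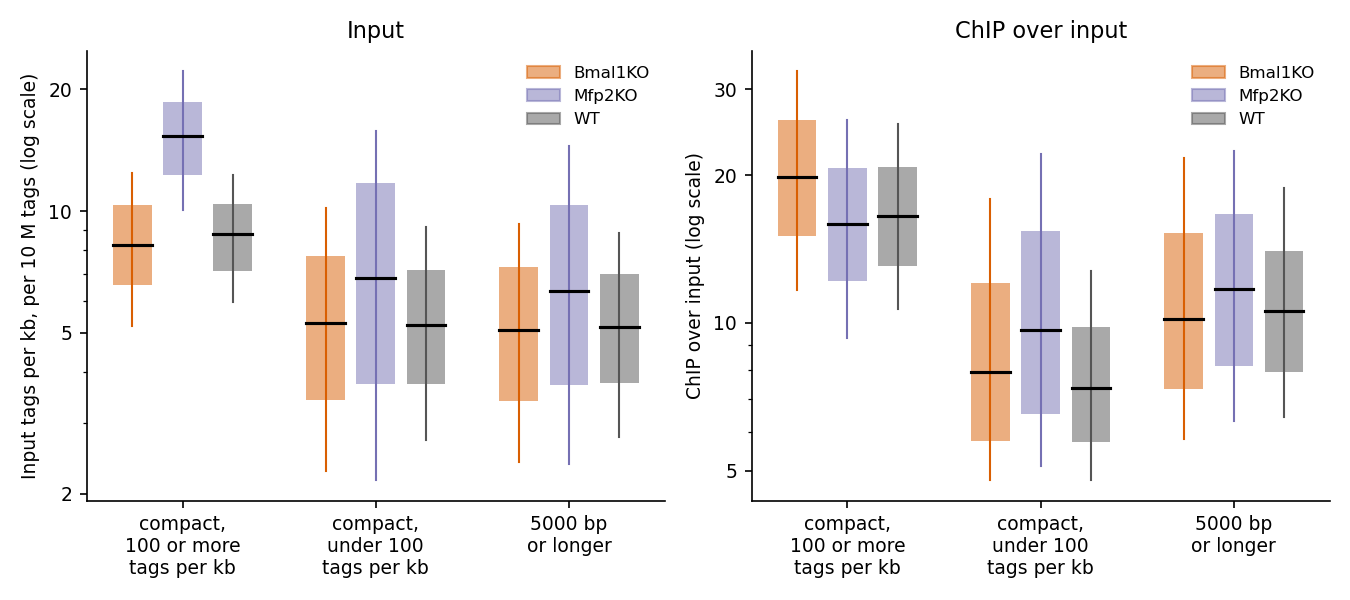
Input tags per kb of called length, per 10 M tags (left), and ChIP tags over scaled input tags (right), both on log scales, in compact dense regions, sparser compact regions and regions of 5000 bp or longer. Black lines are medians, boxes the quartiles and thin lines the 10th to 90th percentiles over regions, with 1 library pair per genotype. In the compact dense regions input medians were 8.25 in Bmal1KO, 15.31 in Mfp2KO and 8.77 in WT, and ChIP over input was highest in Bmal1KO.

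Input per kb also moved with ChIP tags per kb among the compact dense regions themselves. Both are divided by the same called length of the same list, so they are not independent measures. With the regions cut into 5 equal groups of 540 by Mfp2KO tags per kb, median Mfp2KO input went through 12.42, 13.95, 15.35, 16.13 and 18.26 tags per kb from the sparsest to the densest group. Ranked by Bmal1KO tags per kb, median Bmal1KO input went through 6.84, 7.67, 7.86, 8.87 and 10.26. Ranked by WT tags per kb, median WT input went through 8.28, 8.45, 8.34, 8.80 and 9.91. Input was highest in the densest group of every library. The densest group over the sparsest came to 1.501 in Bmal1KO, 1.47 in Mfp2KO and 1.20 in WT.

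Ranked by density in 1 knockout, the other knockout varied over a wider range than WT. Across the 5 groups ranked by Mfp2KO density, median Bmal1KO density was 102.7, 133.1, 158.1, 189.4 and 255.8 tags per kb, while WT density was 120.8, 130.0, 135.9, 141.7 and 165.3. Across the groups ranked by Bmal1KO density, median Mfp2KO density was 145.8, 197.8, 240.4, 283.5 and 378.2, and WT density was 124.2, 127.6, 137.3, 141.2 and 161.2. Ranked by WT, the medians ran from 136.4 to 209.4 in Bmal1KO and from 197.6 to 314.5 in Mfp2KO. The rule cuts the WT range at 100 and leaves the knockout ranges open, and input rises along these rankings as given above. These medians are a description over regions of single libraries.

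**Figure D4:**
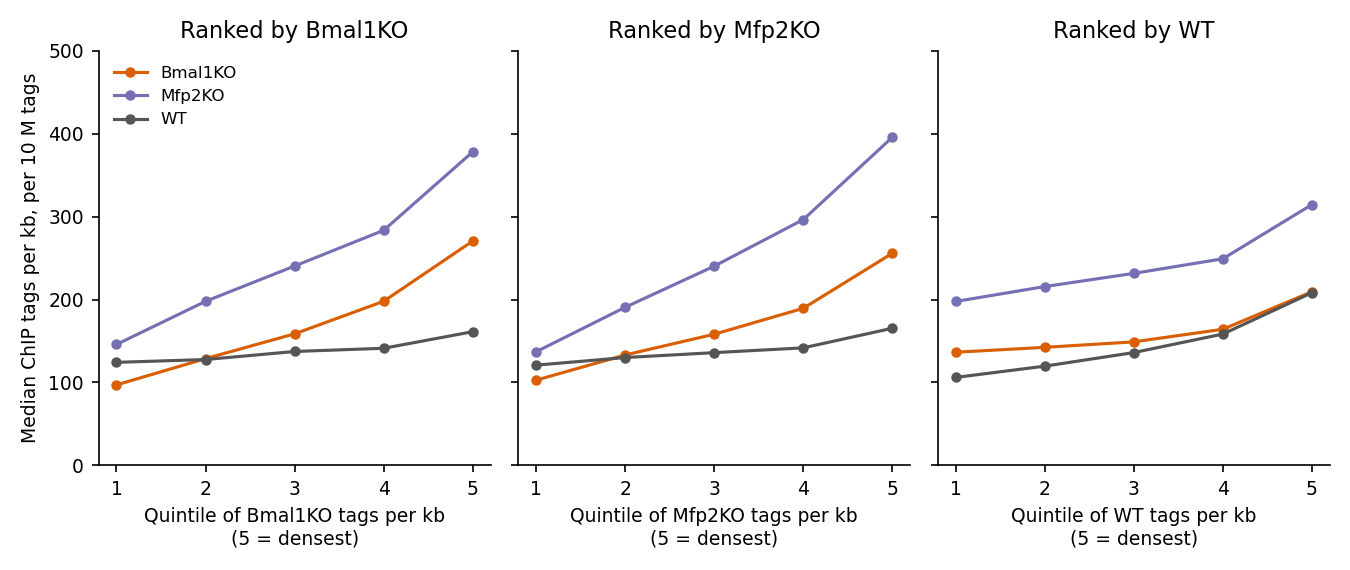
Median H3K27ac tags per kb, per 10 M tags, in 5 equal groups of 540 compact dense regions ranked by density in Bmal1KO (left), Mfp2KO (middle) or WT (right), with 1 line per genotype. In the left and middle panels the 2 knockouts climb together while WT stays between 120.8 and 165.3, and in the right panel all 3 climb.

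The single densest region in WT lay on chromosome 8 (19833717-19835793). It had 1049.9 tags per kb in Bmal1KO, 1964.6 in Mfp2KO and 520.7 in WT. In total it held 2128.1 tags per 10 M in Bmal1KO, 3618.8 in Mfp2KO and 738.3 in WT, over 2027, 1842 and 1418 bp. Both knockouts stood well above WT, at 2.88-fold for Bmal1KO (95% exact counting interval 2.69 to 3.09) and 4.90-fold for Mfp2KO (4.60 to 5.22). As counted, its Mfp2KO tags came to 3100.2 per kb, although the header names a maximum of 1 tag per bp. Its input was far above the member medians at 53.37 tags per kb in Bmal1KO, 93.19 in Mfp2KO and 67.40 in WT. Counting intervals here and below cover counting error only, since reads without molecular identifiers are not independent molecules.

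That region belonged to a cluster. It was 1 of 4 compact dense regions between 19 and 21 Mb on chromosome 8, of which the others started at 20016224, 20143264 and 20697097. Their WT input was 67.40, 25.44, 24.59 and 52.72 tags per kb in order of position. Of the 6 compact dense regions whose WT input exceeded 3 times the median, or 26.31 tags per kb, 2 lay in this cluster, and its other 2 were just below that level. In the 4 regions Bmal1KO over WT ran between 2.43 and 2.88 and Mfp2KO over WT between 3.39 and 4.90, so all 4 were high in both knockouts. ChIP over input was 15.98 to 20.55 in Bmal1KO, 15.20 to 21.08 in Mfp2KO and 6.97 to 7.72 in WT. Input in 3 of the 4 was higher in WT than in Bmal1KO, and in all 4 it was highest in Mfp2KO. A part for multiply mapped reads was not tested.

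The next 2 by WT density went different ways. The region on chromosome 3 (88855909-88860451) held 1071.9 tags per 10 M in Bmal1KO, 1781.3 in Mfp2KO and 1746.7 in WT, the highest WT total of all compact dense regions. It was 0.61-fold in Bmal1KO (0.57 to 0.66) and 1.02-fold in Mfp2KO (0.97 to 1.07), and its density was 238.3 tags per kb in Bmal1KO, 629.2 in Mfp2KO and 509.7 in WT. The region on chromosome 17 (6742766-6745636) held 2003.7 tags in Bmal1KO, 2931.5 in Mfp2KO and 1052.4 in WT, over 2870, 2409 and 2496 bp, so it was high in both knockouts. Its input was also high, at 39.58 tags per kb in Bmal1KO, 70.12 in Mfp2KO and 43.01 in WT.

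Of the 10 regions densest in WT, 3 had high input and were above WT in both knockouts, as just given for chromosomes 8 and 17, counting the chromosome 8 region that starts at 20697097. A further one on chromosome 1 (167110054-167114176), with an input of 16.98 tags per kb in WT, was 1.34-fold in Bmal1KO and 1.58-fold in Mfp2KO. In summed tags the other 6 were between 0.54-fold and 0.91-fold in Bmal1KO and between 0.81-fold and 1.15-fold in Mfp2KO. The lowest of these in both knockouts lay on chromosome 12 (108757002-108761744), with 913.5 tags in Bmal1KO, 1387.8 in Mfp2KO and 1706.8 in WT. Its density was 199.1 tags per kb in Bmal1KO, 363.3 in Mfp2KO and 367.1 in WT.

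A handful of regions had few summed tags in 1 knockout and many in the other. The region on chromosome 6 (94258927-94262413) had 23.1 tags per 10 M in Bmal1KO, 811.1 in Mfp2KO and 427.1 in WT. Its called length was 681 bp in Bmal1KO, 3117 bp in Mfp2KO and 3136 bp in WT. Bmal1KO over WT was 0.054 (95% exact counting interval 0.036 to 0.078), the lowest of all 2700 regions, while Mfp2KO over WT was 1.90 (1.73 to 2.09). Per kb the level fell less steeply, with 33.92 tags in Bmal1KO, 260.2 in Mfp2KO and 136.2 in WT, a ratio to WT of 0.25 in Bmal1KO and 1.91 in Mfp2KO. Input was 7.38 tags per kb in Bmal1KO, 19.40 in Mfp2KO and 13.31 in WT, each over the length called in that list.

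On chromosome 10 (128744215-128748175) the tags were 74.2 in Bmal1KO, 1211.0 in Mfp2KO and 770.9 in WT, over 1400, 3523 and 3960 bp. Bmal1KO over WT was 0.096 (0.077 to 0.119) and Mfp2KO over WT was 1.57 (1.46 to 1.69). Density was 53.00 tags per kb in Bmal1KO, 343.7 in Mfp2KO and 194.7 in WT, which is a ratio to WT of 0.27 in Bmal1KO and 1.77 in Mfp2KO. Input there was 6.90 tags per kb in Bmal1KO, 20.49 in Mfp2KO and 11.22 in WT. Every other compact dense region was at 0.295-fold or higher in Bmal1KO in total tags. The third lowest, on chromosome 2 (156918928-156922261), was 0.30-fold in Bmal1KO (0.25 to 0.35) and 0.45-fold in Mfp2KO (0.39 to 0.51). Its density was 49.33 tags per kb in Bmal1KO, 113.9 in Mfp2KO and 141.9 in WT. The fourth, on chromosome 7 (34816463-34821344), had 195.1 tags in Bmal1KO, 910.0 in Mfp2KO and 648.7 in WT. Per kb these were 52.76, 229.0 and 132.9, so it was low in Bmal1KO alone by both measures.

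Mfp2KO was very low at other regions. The region on chromosome 17 (45045146-45048094) had 270.1 tags per 10 M in Bmal1KO, 15.5 in Mfp2KO and 324.2 in WT. The Mfp2KO call there was 500 bp, the shortest call among these regions, against 2948 bp in Bmal1KO and 2519 bp in WT. Bmal1KO over WT was 0.83 (0.73 to 0.96) and Mfp2KO over WT was 0.048 (0.030 to 0.071). Per kb the levels were 91.62 in Bmal1KO, 31.00 in Mfp2KO and 128.7 in WT, so the ratio to WT was 0.71 in Bmal1KO and 0.24 in Mfp2KO. Its input was 11.58 tags per kb in Bmal1KO, 7.02 in Mfp2KO and 18.84 in WT, each over the length called in that list. The Mfp2KO value rests on very few input tags over 500 bp, so nothing is read from its place below WT.

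Another 2 regions had few Mfp2KO tags, over short called lengths. On chromosome 12 (112644086-112646442) there were 120.9 tags in Bmal1KO, 30.1 in Mfp2KO and 297.9 in WT. On chromosome 11 (87988631-87992416) there were 371.8 in Bmal1KO, 49.4 in Mfp2KO and 359.0 in WT. At the first the called lengths were 1458 bp in Bmal1KO, 500 bp in Mfp2KO and 2356 bp in WT, and the densities were 82.92, 60.20 and 126.4 tags per kb. Its ratio to WT was thus 0.41 in tags and 0.66 per kb in Bmal1KO, and 0.10 in tags and 0.48 per kb in Mfp2KO. At the second the called lengths were 3466 bp in Bmal1KO, 693 bp in Mfp2KO and 2677 bp in WT, and the densities were 107.3, 71.28 and 134.1 tags per kb. Its ratio to WT was 1.04 in tags and 0.80 per kb in Bmal1KO, and 0.14 in tags and 0.53 per kb in Mfp2KO. At both, density in Mfp2KO differed from WT by far less than the tag sums did. The chromosome 17 and 11 regions gave the highest Bmal1KO over Mfp2KO ratios of summed tags, 17.43 (11.75 to 28.14) and 7.53 (5.91 to 9.69), which per kb were 2.956 and 1.505.

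At the upper end the ratios share their WT value, so each knockout is given with its own tags. The highest Bmal1KO over WT ratio was 3.03 (2.66 to 3.46) on chromosome 2 (29778227-29781234), where tags were 623.9 in Bmal1KO, 724.6 in Mfp2KO and 206.1 in WT. The WT call there was 1427 bp, against 2811 bp in Bmal1KO and 2620 bp in Mfp2KO, so density differed less, with 221.9, 276.6 and 144.4 tags per kb. On chromosome 6 (137710878-137714870) tags were 923.1 in Bmal1KO, 1080.8 in Mfp2KO and 316.0 in WT. Input at that region was ordinary, at 7.46 tags per kb in Bmal1KO, 15.57 in Mfp2KO and 6.72 in WT, and tag ratios were 2.92 for Bmal1KO (2.63 to 3.25) and 3.42 for Mfp2KO (3.10 to 3.79).

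A gain that was larger in Mfp2KO lay on chromosome 9 (114608930-114612111). Tags were 552.1 in Bmal1KO, 1356.1 in Mfp2KO and 312.2 in WT over similar lengths of 2754, 3082 and 2821 bp. Bmal1KO over WT was 1.77 (1.57 to 1.99) and Mfp2KO over WT was 4.34 (3.94 to 4.80), and input was 13.64, 15.32 and 8.95 tags per kb in Bmal1KO, Mfp2KO and WT. The other 5 of the 6 highest Mfp2KO over WT ratios were 3 in the chromosome 8 cluster, one at a 500 bp WT call on chromosome 6 (47636575-47637225) with 56.18 input tags per kb in Mfp2KO, and one on chromosome 16 (16964494-16966890). The last had 631.5 tags in Bmal1KO, 1037.4 in Mfp2KO and 247.9 in WT, over 2345, 2144 and 2042 bp.

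The limits of the rule cut through a continuous range. Just inside the density limit, the region on chromosome 11 (22939360-22942173) had 236.0 tags per kb in Bmal1KO, 378.5 in Mfp2KO and 100 in WT. Just outside it, the region on chromosome 19 (42133454-42137976) had 132.1 in Bmal1KO, 335.3 in Mfp2KO and 99.98 in WT, and one on chromosome 16 (87494460-87497911) had 97.53, 136.7 and 99.94. Just inside the length limit, the region on chromosome 11 (50021190-50026878) was 3635 bp in Bmal1KO, 5518 bp in Mfp2KO and 4997 bp in WT, with 84.29, 76.48 and 119.8 tags per kb. Just outside it, the region on chromosome 14 (115276960-115282205) was 3927 bp in Bmal1KO, 3708 bp in Mfp2KO and 5004 bp in WT, with 102.9, 107.0 and 131.9 tags per kb.

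Compact dense regions lay somewhat farther from their neighbours than the other classes. Gaps were taken to the nearest of all 38990 merged regions, whether called in every genotype or not. The median gap was 7992.5 bp, against 4642 bp for the compact regions under 100 tags per kb and 1645.5 bp for the regions of 5000 bp or longer. Another merged region lay within 10 kb of 1497 compact dense regions (55.44%), compared with 67.79% of the sparser compact regions and 87.78% of the long ones. Within 50 kb, 91% of the compact dense regions had one. The median distance to the nearest other compact dense region was 131 kb. Only 94 of them (3.48%) had one within 10 kb, and 598 (22.15%) within 50 kb. Gaps were measured from edge to edge, and the classes differ in length by the rule, so they are a description.

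They were found on every chromosome analysed. Their share of the regions called in every genotype ran between 14.29% on chromosome 7 (95% Wilson interval 12.27 to 16.57) and 24.15% on chromosome 3 (21.08 to 27.51). By number there were 226 on chromosome 11 and 78 on chromosome 18. The median Bmal1KO over WT ratio ran between 0.95 on chromosome 6 (95% interval of the median over regions 0.90 to 1.10) and 1.15 on chromosome 16 (1.03 to 1.25). The median Mfp2KO over WT ratio ran between 1.26 on chromosome 5 (1.16 to 1.35) and 1.47 on chromosome 8 (1.26 to 1.61). Most intervals overlapped, and on this library-total scale Mfp2KO over WT was above Bmal1KO over WT on every chromosome.

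**Figure D5:**
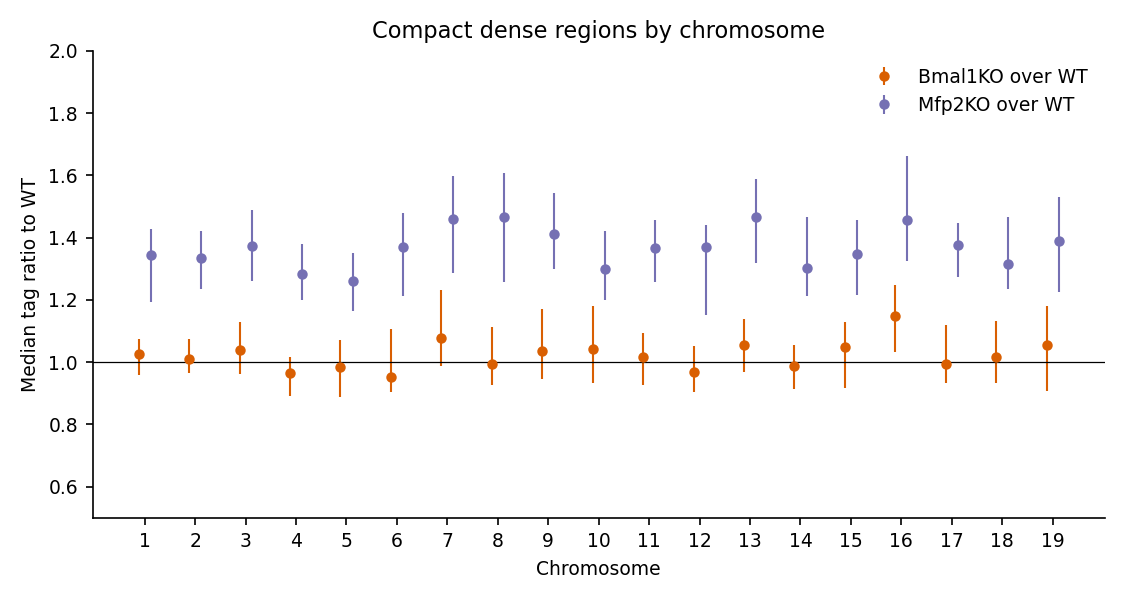
Median tag ratio of Bmal1KO over WT and of Mfp2KO over WT in the compact dense regions of each chromosome (library-total scale). Vertical lines are 95% order-statistic intervals of the median over the regions of 1 library pair, so they hold no replicate error. Bmal1KO over WT stays between 0.95 and 1.15, and Mfp2KO over WT between 1.26 and 1.47.

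Chromosome 16 had the highest Bmal1KO over WT median and also the highest Bmal1KO input ratio to WT, 1.09 in the compact dense regions and 1.03 in the other regions called in every genotype. Chromosome 12 had the lowest Bmal1KO input ratio, 0.90 in the compact dense regions. The Mfp2KO input ratio to WT in compact dense regions ran between 1.58 on chromosome 15 and 1.87 on chromosome 18, above 1 throughout. In the other regions it ran between 1.18 and 1.36, so these ranges did not meet. A part for copy number in the chromosome differences was not tested.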

How the data were processed

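H3K27ac ChIP-seq was analysed from 3 deposited peak lists, 1 per ChIP library, with groups taken from the genotype labels. Cultures received 5% serum and were fixed for 10 min in 1% formaldehyde before sonication, per the labels' protocols. The submitters' processing notes name HOMER 5.1, MACS3 3.0.3, Picard 3.4.0, BWA 0.7.19-r1273, SAMtools 1.23, fastp 1.0.1 and build mm39. The treatment of duplicate and multiply mapped reads is not given in these sources. The authors ran HOMER findPeaks in histone style on each library, with 500 bp windows and the matching input, per the file headers. Per the file headers, a peak needed a p-value of at most 0.0001 and at least 4-fold over input. ChIP signal is the authors' normalized tag count, which the headers place at 10 M tags for each library. Input tags are a deposited signal at the depth of their column (12.53 M in Bmal1KO, 12.82 M in Mfp2KO and 14.86 M in WT), and were rescaled to 10 M. The deposited fold over input is a ratio of ChIP to input tags, and ChIP over input was recomputed per region from summed tags. The authors' clonal fold, a deposited ratio, and the findPeaks score, whose formula the headers do not state, carry no result in the text.

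Peaks sharing at least 1 bp were merged on chromosomes 1 to 19, and tags, called length and input were summed per region and list. Tag ratios are knockout over WT at 1.5-fold, with exact conditional 95% counting intervals, Wilson intervals on shares and order-statistic intervals on medians. Intervals cover counting error or the spread over regions only. The merging and intervals were tested on simulated data. Python 3.11.15, pandas 2.3.3 and SciPy 1.17.1 were used. Regions named were the 10 of highest WT tags per kb, the 5 with most WT tags, the 6 lowest and 6 highest of each ratio, and those next to the limits. From these sets the ones that differ most are printed. The chromosome 8 cluster, the high-input regions and the regions next to the length limit were chosen after their values were seen. The members, lists and settings were chosen with earlier results of these data known. Gene starts, promoter motifs and gene lists were planned and were not analysed here, because the gene and promoter tables used are of build GRCm38 and the peaks are on mm39. No sequence is printed for the same reason.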

Additional observations from a re-analysis of the deposited data

Results flagged for a closer look

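In summed tags on the library-total scale, 4 of the 2700 compact dense regions went opposite ways by at least 1.5-fold. In all 4 Bmal1KO was below WT and Mfp2KO above it. No region went the other way round. On chromosome 6 (94258927-94262413) Bmal1KO over WT was 0.05409 and Mfp2KO over WT 1.899. On chromosome 10 (128744215-128748175) the ratios were 0.09625 in Bmal1KO and 1.571 in Mfp2KO. On chromosome 3 (143903369-143905782) they were 0.4116 in Bmal1KO and 1.878 in Mfp2KO, from 88.2, 402.4 and 214.3 tags per 10 M in Bmal1KO, Mfp2KO and WT. On chromosome 4 (54945730-54950409) they were 0.6222 in Bmal1KO and 2.697 in Mfp2KO, from 273.2, 1184.4 and 439.1 tags in Bmal1KO, Mfp2KO and WT. The difference between the knockouts was not tested, since each has 1 library and both are set against the same WT library. Over all 14443 regions called in every genotype, 705 (4.88%) went this way and 52 (0.36%) the other way, so such regions were not a larger share of the compact dense ones (0.148%). The call depended on the scale. Relative to the median region, none of the 2700 was lower in Bmal1KO and higher in Mfp2KO, against 306 of all regions (2.12%). On that scale 2 were higher in Bmal1KO and lower in Mfp2KO (0.0741%), against 128 of all regions (0.886%). In tags per kb on the library-total scale 11 of the 2700 were lower in Bmal1KO and higher in Mfp2KO (0.407%), against 162 of all regions (1.12%). The chromosome 4 region, at 79.14 tags per kb in Bmal1KO, 253.1 in Mfp2KO and 118.2 in WT, was then 0.67-fold in Bmal1KO, just inside 1.5-fold.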

How the results depend on the processing

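No paired analysis was possible because each genotype had 1 ChIP library. The 1 library per genotype, its input and its depth limit every value. Leaving out a library was not possible. The alternatives for gene starts, motifs and gene lists were not run. Of 154 values under other settings, 81 stayed within the limits set for no change, 71 moved and 2 went from above 1 to below 1. For a count the limit was 1.5-fold of its main value. For a median it was the much narrower order-statistic interval over regions, which holds no replicate error. The tally is therefore a description and no measure of how firm a result is. The cause of the moves was not tested, beyond the change of regions or scale that a setting makes by construction. Merging by 50% of the shorter peak, adding chromosome X or leaving out 4 regions of high WT input moved no value. Apart from the median-region and per-kb counts, 1.5-fold counts under other settings were not taken over all 14443 regions. No background share stands beside them, and the number of regions differs between settings. Nothing is therefore read from a rise or fall in these counts.

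Asking for 150 tags per kb or more left 975 regions, and Bmal1KO over WT turned to 0.909, against 1.017 at 100. At 150, Mfp2KO over WT was 1.229, the 1.5-fold counts were 188 lower and 93 higher in Bmal1KO and 44 lower and 295 higher in Mfp2KO, and length ratios were 0.9224 in Bmal1KO and 0.8206 in Mfp2KO. Density was then 187.5 in Bmal1KO and 285.1 in Mfp2KO, and fold over input 22.65 in Bmal1KO, 17.49 in Mfp2KO and 20.06 in WT. At 80 tags per kb or more there were 3730 regions, with ratios of 1.083 for Bmal1KO and 1.446 for Mfp2KO. Of these regions 858 were higher in Bmal1KO and 1728 in Mfp2KO. Densities were 148.3 in Bmal1KO and 225.9 in Mfp2KO, and fold over input 18.55 in Bmal1KO, 15.35 in Mfp2KO and 14.81 in WT.

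A WT length under 3000 bp left 975 regions, with ratios of 1.075 for Bmal1KO and 1.397 for Mfp2KO. Counts were then 117 lower and 221 higher in Bmal1KO and 42 lower and 414 higher in Mfp2KO. Length ratios were 0.9916 in Bmal1KO and 0.8597 in Mfp2KO, densities 144.5 in Bmal1KO and 209.9 in Mfp2KO, and fold over input 17.69 in Bmal1KO, 14.1 in Mfp2KO and 14.6 in WT. With no length limit the Bmal1KO length ratio was 0.9065. At 8-fold or more over input in every list there were 2531 regions, and Mfp2KO over WT was 1.39 with 66 lower regions. Densities were then 162.9 in Bmal1KO and 246.8 in Mfp2KO, and fold over input 20.47 in Bmal1KO, 16.49 in Mfp2KO and 16.94 in WT.

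Relative to the sum of tags in shared regions, Mfp2KO over WT turned to 0.8969, with 665 lower and 269 higher regions and a density of 158.5. Relative to the median shared region, ratios were 1.166 for Bmal1KO and 1.005 for Mfp2KO, counts 183 lower and 747 higher in Bmal1KO and 439 lower and 439 higher in Mfp2KO, and densities 181.9 in Bmal1KO and 177.6 in Mfp2KO. So whether Mfp2KO stood above WT depended on the scale. With input subtracted, densities were 150 in Bmal1KO and 224.2 in Mfp2KO.

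At a fold of 2 the counts were 71 lower and 107 higher in Bmal1KO and 23 lower and 464 higher in Mfp2KO. With the 95% counting limit past 1.5-fold, 193 were lower and 310 higher in Bmal1KO and 57 lower in Mfp2KO. Choosing regions by a knockout list and using tags per kb in place of tags were added after the data were seen. Per kb, ratios were 1.109 for Bmal1KO and 1.666 for Mfp2KO, with 23 lower regions in Mfp2KO. By the Bmal1KO list, ratios were 1.285 for Bmal1KO and 1.696 for Mfp2KO, and by the Mfp2KO list 1.191 and 1.9.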
